A study of Homo sapiens
Mus musculus with 6 samples.

Results

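The HOX genes of HT29 tumours and of the mice that carried them were examined as a family, in the tumour cells (human genes) and in the host (mouse genes). Members were every gene named HOX with a cluster letter from A to D and a number, 39 of the 63652 rows of the human table and 39 of the 42979 rows of the mouse table. Where a gene had several rows, the row with the largest summed value was kept. HT29 is an established human colorectal adenocarcinoma cell line. It was grown subcutaneously in nude mice, which lack a thymus, for 4 weeks, as 3 control tumours and 3 tumours overexpressing the mouse laminin alpha 1 chain, part of a protein of basement membranes. No genotype, vector, clone, host strain or host age beyond this is given for either group, and the labels name no treatment.

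HOX genes encode homeodomain transcription factors that lie in clusters A, B, C and D, on human chromosomes 7, 17, 12 and 2 and on mouse chromosomes 6, 11, 15 and 2. Genes of the same number in different clusters are paralogs. Low numbers act towards the head and high numbers towards the tail, in the hindgut, the urogenital tract and the distal limb, and adult epithelia and fibroblasts keep part of this positional code. HOX proteins bind DNA with TALE cofactors such as PBX and MEIS, caudal (CDX) proteins and retinoic acid induce HOX genes, and Polycomb and Trithorax complexes keep them silent or active.

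The deposited tables give 1 signal value per group and gene, and calls rest on the test the authors ran. No spread between tumours can be given, except for low genes whose signal could be split by library as described below. Levels are given in ppm, the parts of 1000000 that a gene took of all signal in its species' table. They are not corrected for gene length, so a level is a share of reads, and human and mouse levels stand on separate scales. A gene was called when its p-value, adjusted by the Benjamini-Hochberg method over all tested genes of its table, was under 0.05 (for mouse genes, the q-value the authors deposited). For most low genes the signal was a whole-number sum of 3 steps, each taken as the worth of 1 read in 1 library, 0.0120 to 0.0137 ppm in the human table and 0.103 to 0.254 ppm in the mouse table. Libraries are numbered by step within a group, from the deepest, library 1. Which labelled tumour each one is cannot be told, and library numbers do not pair the groups. The largest step was 2.47 times the smallest among the laminin libraries of the mouse table and at most 1.08 times in the other groups.

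The epithelial markers EPCAM, CDH1, KRT8, KRT18, KRT20 and VIL1 summed to 5908 and 5771 ppm in control and laminin tumours, and 0 of these 6 were called. Host fibroblast markers summed to 36215 and 34159 ppm, endothelial markers to 916 and 955 ppm and leukocyte markers to 921 and 1122 ppm, with 0 called in each list. Adipocyte markers summed to 3196 and 175 ppm with 4 of 5 called lower, skeletal muscle markers to 3363 and 469 ppm with 5 of 5 called lower, and skin markers to 1454 and 6.09 ppm with 2 of 6 called lower. In bulk tumours, fewer cells of a type and less RNA per cell cannot be told apart. The adipocyte, muscle and skin markers were too high in control tumours to be split by library, so their spread between tumours is not known.

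In the tumour cells the HOX signal came almost wholly from clusters A and B. The 39 human HOX genes together held 918 ppm (control) and 1099 ppm (laminin), a ratio of 1.20. Cluster B held 65.4% of the control and 65.0% of the laminin HOX signal, and cluster A held 33.7% and 33.6%. Cluster C held 0.861% and 1.07%, and cluster D held 0.0354% and 0.339%. All 11 genes of cluster A and 9 of the 10 of cluster B reached a mean of 1 ppm, against 2 of 9 in cluster C and 1 of 9 in cluster D. Those were HOXC6 and HOXC13 in cluster C and HOXD13 in cluster D, as the plot of human levels by cluster shows. HOXD13 reached that mean only through laminin tumours, at 3.34 ppm against 0.142 ppm in control tumours.

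**Figure D1:**
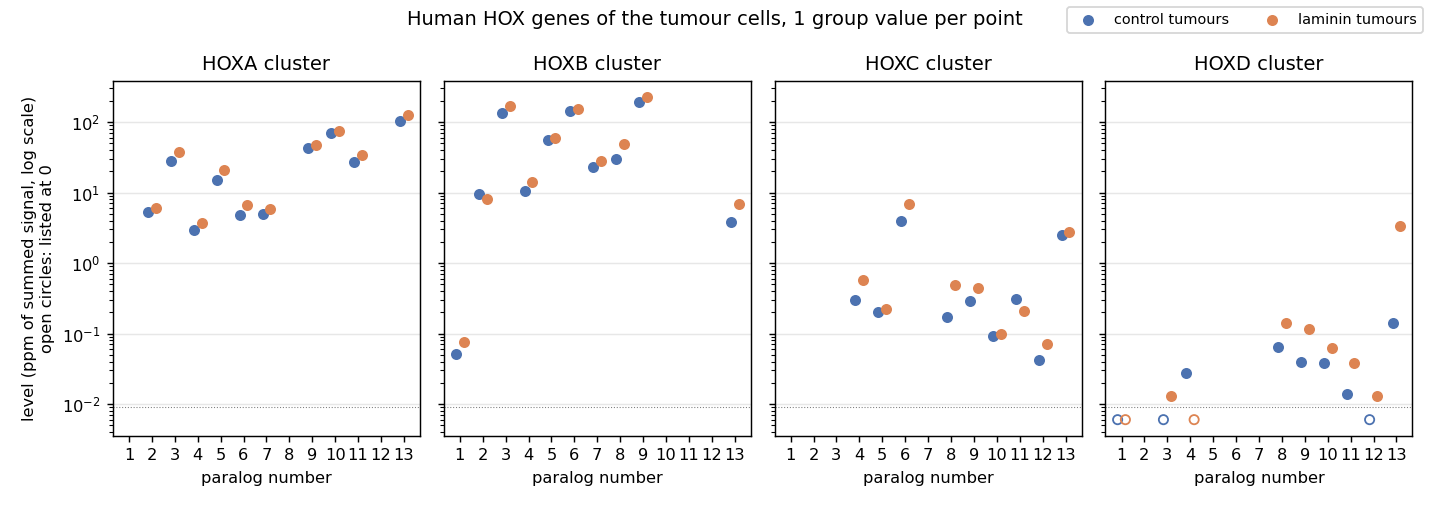
Levels of human HOX genes in control and laminin tumours, in ppm on a log scale, against paralog number, with 1 panel per cluster and open circles for genes listed at 0. Clusters A and B run from 2.97 to 226 ppm apart from HOXB1, and HOXD13 goes from 0.142 ppm in control to 3.34 ppm in laminin tumours while the other cluster D genes stay under 0.140 ppm.

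The 5 human members with the largest share of reads did not pass the test. HOXB9 (ENSG00000170689), a gene of the thoracic axis, was at 190 ppm in control against 226 ppm in laminin tumours, where the authors' deposited table gave p = 0.0964 and the adjusted p was 0.458. HOXB3 (ENSG00000120093), a hindbrain patterning gene, was at 136 and 170 ppm, where the authors' deposited table gave p = 0.145 and the adjusted p was 0.562. HOXB6 (ENSG00000108511) was at 142 and 154 ppm, where the authors' deposited table gave p = 0.586 and the adjusted p was 0.953. HOXA13 (ENSG00000106031), which patterns the hindgut, the urogenital tract and the digits, was at 103 and 125 ppm, where the authors' deposited table gave p = 0.0792 and the adjusted p was 0.408. HOXA10 (ENSG00000253293), a gene of the lumbar axis and the uterus, was at 70.7 and 75.2 ppm, where the authors' deposited table gave p = 0.590 and the adjusted p was 0.955. Divided by the RefSeq gene span (GRCh38.p14, introns included), the control levels were 36.5 ppm per kb for HOXB9, 21.8 for HOXB5, 18.0 for HOXA13 and 15.4 for HOXB6. On that scale HOXB9 was still the first, and HOXB3, with its long span, left the first 8.

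Both human members that passed the test carry the number 13 and were higher in laminin tumours. HOXD13 and HOXB13 were 2 of 33 tested members, or 6.06%, where 5.63% of all 25838 tested human genes were called higher. The share was thus near that of all genes. No member was called lower, where 2.45% of all tested genes were.

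HOXD13 (ENSG00000128714, chromosome 2) encodes the most posterior factor of cluster D, which patterns digits and the genital tubercle. It stood at 0.142 ppm in control tumours, which split into 1, 8 and 2 reads in the control libraries, or 0.0379, 0.307 and 0.0821 ppm. The control signal was thus 11 reads, present in every control library and highest in library 2. In laminin tumours it stood at 3.34 ppm, equal to 259 to 278 reads, a value too high to be split by library. How many of the 3 laminin tumours carried it could not be resolved. HOXD13 rose 23.5-fold, a log2 ratio of 4.55, where the authors' deposited table gave p = 5e-05 and the adjusted p was 0.00121. With 1 ppm added to both levels the log2 ratio was 1.93, since the control level was so low. No other gene shared its deposited locus.

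HOXB13 (ENSG00000159184, chromosome 17), a gene of the prostate and the distal colon, rose 1.80-fold. It went from 3.85 ppm (282 to 304 reads) to 6.94 ppm (537 to 577 reads), where the authors' deposited table gave p = 0.0001 and the adjusted p was 0.00228. The gene PRAC2 shared its deposited locus, at 0.292 and 0.773 ppm, where the authors' deposited table gave p = 0.0765 and the adjusted p was 0.403. The smaller ratio of HOXB13 thus rested on far more control reads than that of HOXD13.

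The remaining paralog 13 genes did not pass the test. HOXA13 had a ratio of 1.22 and HOXC13, a regulator of hair keratins, a ratio of 1.08, from 2.53 to 2.74 ppm. The 4 paralog 13 genes together held 110 ppm in control against 139 ppm in laminin tumours, and HOXA13 alone made up 103 and 125 ppm of that. The called genes were thus the minor part of the paralog 13 signal.

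Among the 31 tested human members that were not called, HOXC6 came closest. HOXC6 (ENSG00000197757, chromosome 12), a gene of the thoracic axis, was at 3.97 ppm in control against 6.90 ppm in laminin tumours, a ratio of 1.74, where the authors' deposited table gave p = 0.0048 and the adjusted p was 0.0567. It made up 50.3% of the cluster C signal in control and 58.7% in laminin tumours. It shared its deposited locus with 14 other entries, so that reads of overlapping genes cannot be separated. It passed when the adjustment ran only over genes of at least 1 ppm, with an adjusted p of 0.0398.

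HOXB8 was at 29.8 and 48.4 ppm, a ratio of 1.63, where the authors' deposited table gave p = 0.0734 and the adjusted p was 0.395. HOXA5, a gene of the lung and the gut, was at 15.0 and 20.9 ppm, and HOXA3, a gene of the thymus and the pharyngeal arches, at 27.8 and 37.6 ppm. Their ratios were 1.39 and 1.36, and their adjusted p-values were 0.486 and 0.339. The rest of cluster A had ratios from 1.06 for HOXA10 to 1.39 for HOXA6. Of these, HOXA9 and HOXA11 were at 42.9 and 47.6 ppm and at 27.1 and 34.5 ppm, and HOXA2, HOXA4, HOXA6 and HOXA7 lay between 2.97 and 6.63 ppm in both groups. In cluster B the ratios of HOXB3, HOXB4, HOXB5, HOXB6, HOXB7 and HOXB9 ran from 1.08 to 1.35.

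The level was higher in laminin tumours for 35 of the 39 human members, lower for HOXB2, HOXC11 and HOXD4, and 0 in both groups for HOXD1. Among the 33 tested members 31 had a log2 ratio above 0 and the median was 0.32, where 50.4% of all tested human genes had a ratio above 0 and their median was 0.0039. Members that reach a test are partly chosen by the group in which they are high, so these counts are a description without a test. Centring on the median of all genes, or adding 1 ppm, turned the sign of 0 of the 33 ratios. HOXB2 was at 9.67 and 8.16 ppm and HOXC11 at 0.309 and 0.210 ppm, and their unadjusted p-values in the authors' deposited table were 0.778 and 0.775.

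The other members of cluster C lay at low read numbers. HOXC8 was at 0.169 ppm in control tumours, split into 6, 3 and 4 reads, and at 0.486 ppm in laminin tumours, or 38 to 40 reads, with an adjusted p of 0.713. HOXC10 had 2, 2 and 3 reads in the control libraries and 5, 0 and 3 in the laminin libraries. HOXC4, kept from 2 rows, was at 0.295 and 0.581 ppm, HOXC9 at 0.285 and 0.442 ppm, HOXC5 at 0.203 and 0.221 ppm and HOXC12 at 0.0418 and 0.0702 ppm. None of these low genes was called.

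In cluster D the other genes had 11 reads or fewer per group, and HOXD13 made up 43.8% of the cluster signal in control and 89.8% in laminin tumours. HOXD12 had 0 reads in control and 1 in laminin tumours, and HOXD11 had 1 and 3. HOXD10 had 3 and 5 reads, HOXD4 had 2 and 0, HOXD3 had 0 and 1, and HOXD1 had none. These 6 genes carried no test. HOXD9 had 2, 0 and 1 reads in the control libraries and 2, 2 and 5 in the laminin libraries, with an adjusted p of 0.698. HOXD8 had 0, 4 and 1 reads against 2, 5 and 4, with an adjusted p of 0.668. HOXB1, the low member of cluster B, had 0, 4 and 0 reads against 1, 4 and 1. For HOXB1, HOXC10, HOXD8 and HOXD9 the library values of the groups overlapped.

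**Figure D2:**
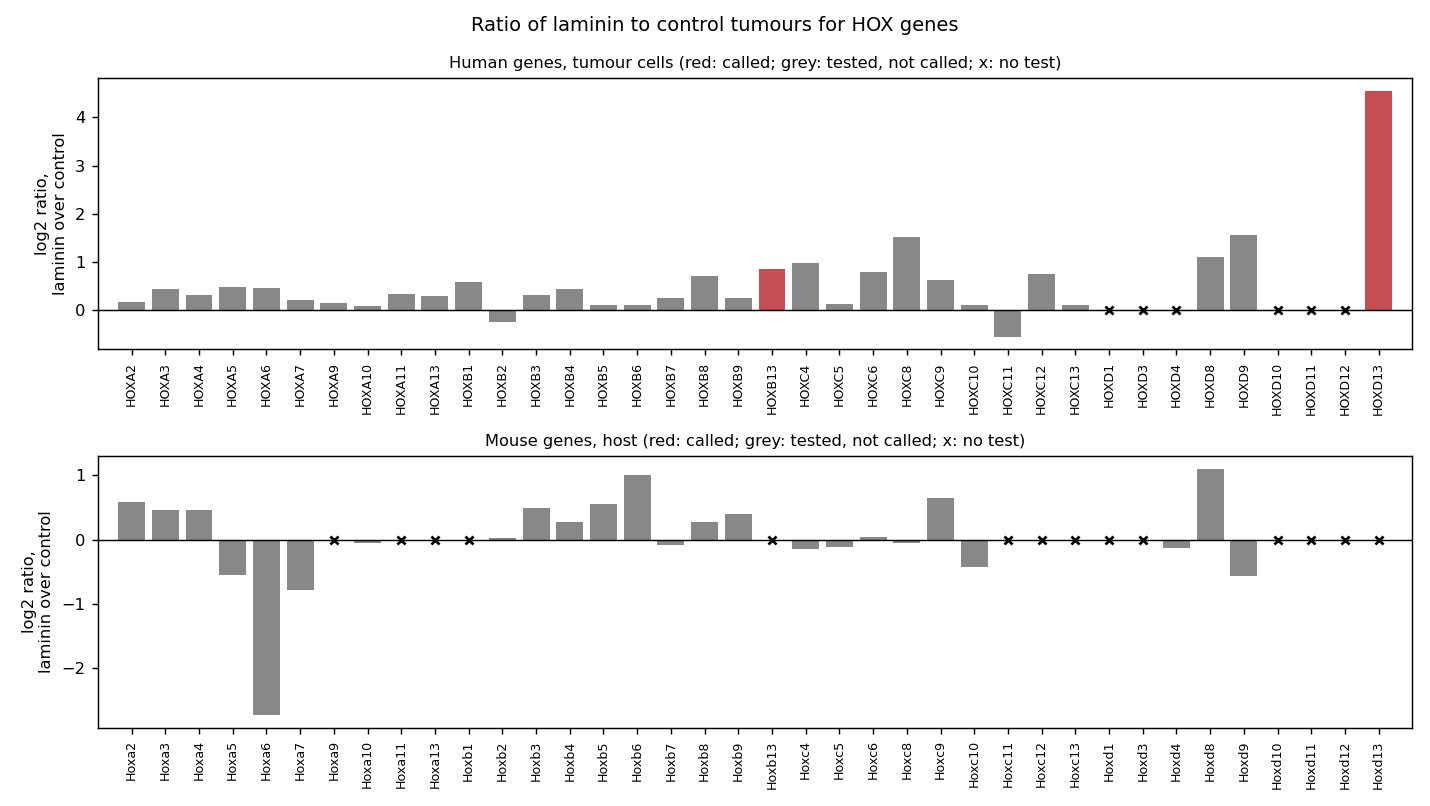
Log2 ratio of laminin over control tumours for HOX genes, human above and mouse below, with called genes in red, other tested genes in grey and genes without a test as crosses. HOXD13 (4.55) and HOXB13 (0.85) are the called genes, and HOXB2 and HOXC11 are the tested human genes with a ratio below 0.

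Long noncoding RNAs lie between the human HOX genes, and some act on them in cis. The list held 19 symbols, with HOXD-AS1 entered also under its newer symbol HAGLR. Of these symbols 17 were in the table and 14 were tested. HOXD-AS1 was the single one called (7.14%, where 8.08% of all tested human genes were called in either direction). HOXD-AS1, known as HAGLR in RefSeq, lies among the anterior HOXD genes and rose 2.42-fold, from 0.920 to 2.23 ppm, where the authors' deposited table gave p = 0.0002 and the adjusted p was 0.00418. Its share of reads in control tumours was above that of every HOXD coding gene.

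HOTTIP, transcribed next to HOXA13, was at 57.6 and 67.3 ppm with an adjusted p of 0.788. HOTAIR, from cluster C, was at 27.0 and 23.7 ppm with an adjusted p of 0.639, a larger share of reads than any HOXC coding gene. HOTAIRM1, at the anterior end of cluster A, was at 19.5 and 25.4 ppm, where the authors' deposited table gave p = 0.0323 and the adjusted p was 0.233. HOXB-AS3 was at 29.1 and 31.5 ppm and HOXA11-AS at 22.0 and 24.1 ppm. The library protocol described no strand-specific step, so reads of antisense genes and of the HOX genes they overlap cannot be told apart. Of the 39 human members, 36 shared a deposited locus with another gene.

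Partners and regulators of HOX genes changed in the tumour cells in both directions. Of 43 listed, 39 were tested and 9 were called, 6 higher and 3 lower, or 23.1% against 8.08% of all tested human genes. The list was drawn up with earlier results of these data known, so its share is not independent evidence. The called genes came from the caudal, EVX, TALE, Polycomb and retinoic acid groups, and 0 of 8 Trithorax and demethylase genes were called, at 0 also by unadjusted p.

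The intestinal caudal factors moved in opposite directions. CDX2, the main intestinal identity factor, rose from 19.6 to 67.8 ppm, 3.47-fold, and CDX1, its paralog, fell from 96.4 to 53.8 ppm, a ratio of 0.558. The ParaHox gene PDX1, a factor of the pancreas and the duodenum, rose from 3.08 to 4.92 ppm, with an adjusted p of 0.0291. CDX1 and CDX2 each had p = 5e-05 by the authors' deposited table, and an adjusted p of 0.00121. CDX4, GSX1 and GSX2 were listed at 0 in both groups.

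EVX1, a homeobox gene beside HOXA13, rose 2.93-fold, from 0.764 to 2.23 ppm, where the authors' deposited table gave p = 0.00015 and the adjusted p was 0.00327. EVX2, which lies beside HOXD13, was at 0.271 and 0.413 ppm with an adjusted p of 0.660. The neighbour of HOXD13 thus had a ratio of 1.52 that did not pass the test.

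Among the TALE cofactors PBX3 fell from 21.4 to 13.4 ppm, a ratio of 0.629, where the authors' deposited table gave p = 5e-05 and the adjusted p was 0.00121. MEIS2 was at 16.4 and 21.9 ppm with an adjusted p of 0.0804. MEIS1 was at 3.87 and 3.25 ppm with an adjusted p of 0.689.

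EZH2, the histone methyltransferase of Polycomb complex 2, fell from 112 to 79.4 ppm, a ratio of 0.709, where the authors' deposited table gave p = 5e-05 and the adjusted p was 0.00121. Its partners SUZ12, at 207 and 175 ppm, and EED, at 45.5 and 35.6 ppm, had adjusted p-values of 0.292 and 0.126. EZH2 was the 1 gene called among 11 Polycomb genes tested. The retinoic acid receptors RARG, from 23.7 to 33.2 ppm, and RXRA, from 97.3 to 128 ppm, rose 1.40-fold and 1.31-fold, with adjusted p-values of 0.0149 and 0.0238. RARA was at 19.7 and 27.4 ppm with an adjusted p of 0.0510, just short of a call.

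**Figure D3:**
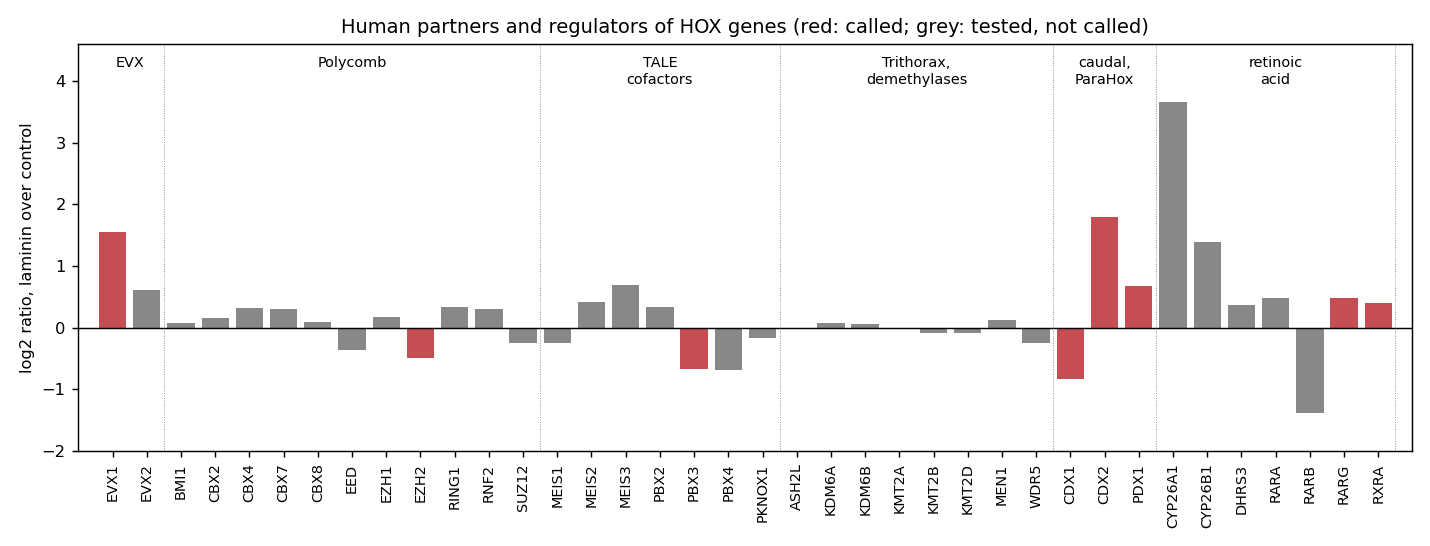
Log2 ratio of laminin over control tumours for tested human partners and regulators of HOX genes, grouped by role, with called genes in red and other genes in grey. CDX2, EVX1, PDX1, RARG and RXRA are called higher and CDX1, PBX3 and EZH2 lower; the large grey ratio of CYP26A1 rests on levels of 0.0137 and 0.173 ppm.

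In the host the Hox genes formed a different profile, led by clusters C and B and by middle paralogs. The 39 mouse members together held 186 ppm in control against 202 ppm in laminin tumours, a ratio of 1.09. Cluster C held 40.2% and 33.3% of this signal, cluster B 30.4% and 34.3%, cluster A 15.2% and 13.4%, and cluster D 14.2% and 19.0%. Paralogs 9 to 13 held 17.7% of the host Hox signal in control and 12.9% in laminin tumours, while in the tumour cells they held 48.0% and 47.6%. Host paralogs 9 to 10 alone held 14.5% and 12.7%, or 27.0 and 25.7 ppm. Of that, Hoxc10 was at 9.01 and 6.66 ppm, Hoxa10 at 5.19 and 5.03 ppm and Hoxa9 at 1.68 and 2.11 ppm. These 3 genes had 81.6% to 97.0% of their control and 88.0% to 96.2% of their laminin signal in library 2. Their part of the share thus came mostly from 1 library per group. Hoxc13, at 5.72 ppm in control and 0 in laminin tumours, had all its reads in control library 3. It counts in the control shares of paralogs 9 to 13 and of cluster C. Shares within each species are compared here, since the scales differ, and no spread between tumours stands beside them.

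**Figure D4:**
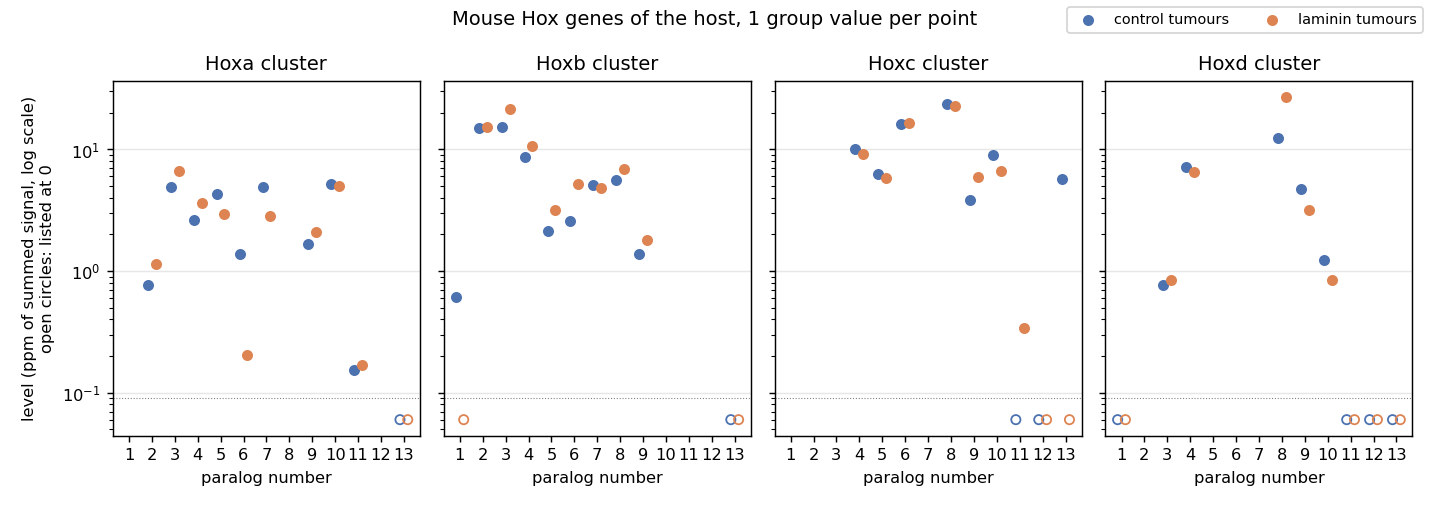
Levels of mouse Hox genes in control and laminin tumours, in ppm on a log scale, against paralog number, with 1 panel per cluster and open circles for genes listed at 0. The highest levels, 12.5 to 26.9 ppm, are those of Hoxd8, Hoxc8, Hoxb3, Hoxc6 and Hoxb2, and paralogs 11 to 13 lie at or near 0 apart from Hoxc13 in control tumours.

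No host Hox gene was called higher or lower, where 0.579% of all 14339 tested mouse genes were called higher, 2.96% lower and 3.54% in all. Of the 39 members 25 were tested, 13 with a log2 ratio above 0 and 12 below, and the median was 0.027 against -0.034 over all tested mouse genes. By unadjusted p 1 member passed, where 10.1% of all tested genes did. Coordinates below are the deposited mm10 loci.

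Hoxd8 (chromosome 2, 74705488 to 74707307) was that member. It was at 12.5 ppm (82 reads) in control tumours and at 26.9 ppm (107 to 261 reads) in laminin tumours, a ratio of 2.15, where the authors' deposited table gave p = 0.00865 and q = 0.154. Its share of the cluster D signal was 47.4% in control against 70.2% in laminin tumours. The other cluster D genes that carried a test were Hoxd4, at 7.18 and 6.53 ppm, and Hoxd9, at 4.73 and 3.21 ppm.

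The other host members with the largest shares of reads had ratios near 1, apart from Hoxb3. Hoxc8 (chromosome 15, 102990538 to 102994254), a gene of the thoracic axis, was at 23.9 and 22.9 ppm, where the authors' deposited table gave p = 0.863 and q = 0.996. Hoxb3 (chromosome 11, 96323125 to 96347930) was at 15.2 and 21.4 ppm, a ratio of 1.41, where the authors' deposited table gave p = 0.186 and q = 0.831. Hoxc6 (chromosome 15, 103009561 to 103011881) was at 16.1 and 16.5 ppm, where the authors' deposited table gave p = 0.924 and q = 0.996. Hoxb2 (chromosome 11, 96351631 to 96354014), a hindbrain gene, was at 15.1 and 15.4 ppm, where the authors' deposited table gave p = 0.951 and q = 0.996. Divided by the deposited locus length, Hoxc6, Hoxd8, Hoxc8 and Hoxb2 had control levels of 6.92, 6.89, 6.42 and 6.35 ppm per kb, and no spread is known by which to order them.

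The remaining tested host members lay between 0.206 and 10.6 ppm, and none had an unadjusted p under 0.05. Hoxb6 was at 2.60 and 5.22 ppm, a ratio of 2.00, and Hoxa7 at 4.92 and 2.85 ppm, a ratio of 0.579. The q-values were 0.812 and 0.921 in the authors' deposited table, so that neither difference passed the test. Hoxb4 was at 8.73 and 10.6 ppm, Hoxc5 at 6.25 and 5.80 ppm, Hoxb7 at 5.07 and 4.81 ppm and Hoxa5 at 4.29 and 2.94 ppm. Hoxa2, Hoxa4 and Hoxb5 lay between 0.769 and 3.60 ppm in both groups. Of the 39 host members, 8 shared a deposited locus with another entry, namely Hoxa3, Hoxa4, Hoxa5, Hoxa6, Hoxa11, Hoxc5, Hoxd3 and Hoxd4. Reads of overlapping genes cannot be separated there. Hoxd4 was kept from 2 rows.

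Host reads were few enough that 33 of the 39 members could be split by library in both groups. For 18 of them, those with at least 8 reads in each group, the 3 laminin values and the 3 control values overlapped without exception, where the groups of 8.65% of 2370 mouse genes split the same way did not overlap. An exact two-sided permutation test of 3 against 3 cannot give a p below 0.1. Hoxb2, Hoxb3, Hoxb4, Hoxc6, Hoxc8 and Hoxd8 were too high to be split in at least 1 group.

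Of these 18 genes 15 had reads in every library. Hoxc4 had 27, 15 and 24 reads in the control libraries and 32, 9 and 17 in the laminin libraries, or 6.87 to 12.3 ppm and 4.55 to 12.96 ppm. In the range of Hoxc4, 10.0% of control and 34.0% of laminin values split into whole reads also after being shifted off the steps. The split of Hoxc4 is thus less sure than that of lower genes. Hoxd4 had 17, 20 and 10 reads against 20, 16 and 7, and Hoxb8 had 13, 10 and 14 against 10, 18 and 11. Hoxa3 had 16, 9 and 7 reads against 24, 13 and 8. In each of these genes no library held more than 50% of the group's signal.

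Hoxa9, Hoxa10 and Hoxc10, host genes of the lumbar and hindlimb level, differed from this. Hoxa10 (chromosome 6, 52231196 to 52240854) had 0, 33 and 1 reads in the control libraries and 3, 28 and 0 in the laminin libraries, or 0, 15.1 and 0.464 ppm against 0.926, 14.2 and 0 ppm. Hoxc10 (chromosome 15, 102966795 to 102971897) had 2, 57 and 0 reads against 0, 38 and 1, or 0.910, 26.1 and 0 ppm against 0, 19.2 and 0.762 ppm. Hoxa9 (chromosome 6, 52224053 to 52227370) had 0, 9 and 2 reads against 0, 11 and 1. Nearly all the signal of these genes thus came from 1 control library and 1 laminin library, and it was the same library of each group for all of them.

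The share in library 2 was 97.0% of the control and 93.9% of the laminin signal for Hoxa10, 96.6% and 96.2% for Hoxc10 and 81.6% and 88.0% for Hoxa9. Among the 2370 mouse genes with at least 8 reads in each group and a split in both, these were the only 3 with at least 80% of the signal in library 2 of both groups. The other 8 pairs of a control and a laminin library held 13 such genes in all. The choice of this pair followed from these genes, so the counts are a description. The group values did not show this pattern, with Hoxa10 at 5.19 and 5.03 ppm and Hoxc10 at 9.01 and 6.66 ppm, and q = 0.996 and 0.984 in the authors' deposited table. Of mouse control values in the range of Hoxc10, 10.0% split into whole reads also after being shifted off the steps, so that its control split is less sure than that of Hoxa10, for whose range the share was 0%.

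Other high paralogs in the host had too few reads to place. Hoxa11 had 1 read in library 2 of each group, Hoxc11 had 2 reads, both in laminin library 2, and Hoxd10 had 5, 0 and 3 reads against 0, 5 and 0. Hoxc9 did not share the pattern, with 17, 5 and 3 reads against 32, 13 and 2, nor did Hoxd9, with 12, 13 and 6 against 9, 9 and 3. Hoxb9 had 3 reads in every control library and 2, 5 and 3 in the laminin libraries. In the human table HOXC10 had 7 reads in control and 8 in laminin tumours, while HOXA10 had at least 5163 in control tumours.

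**Figure D5:**
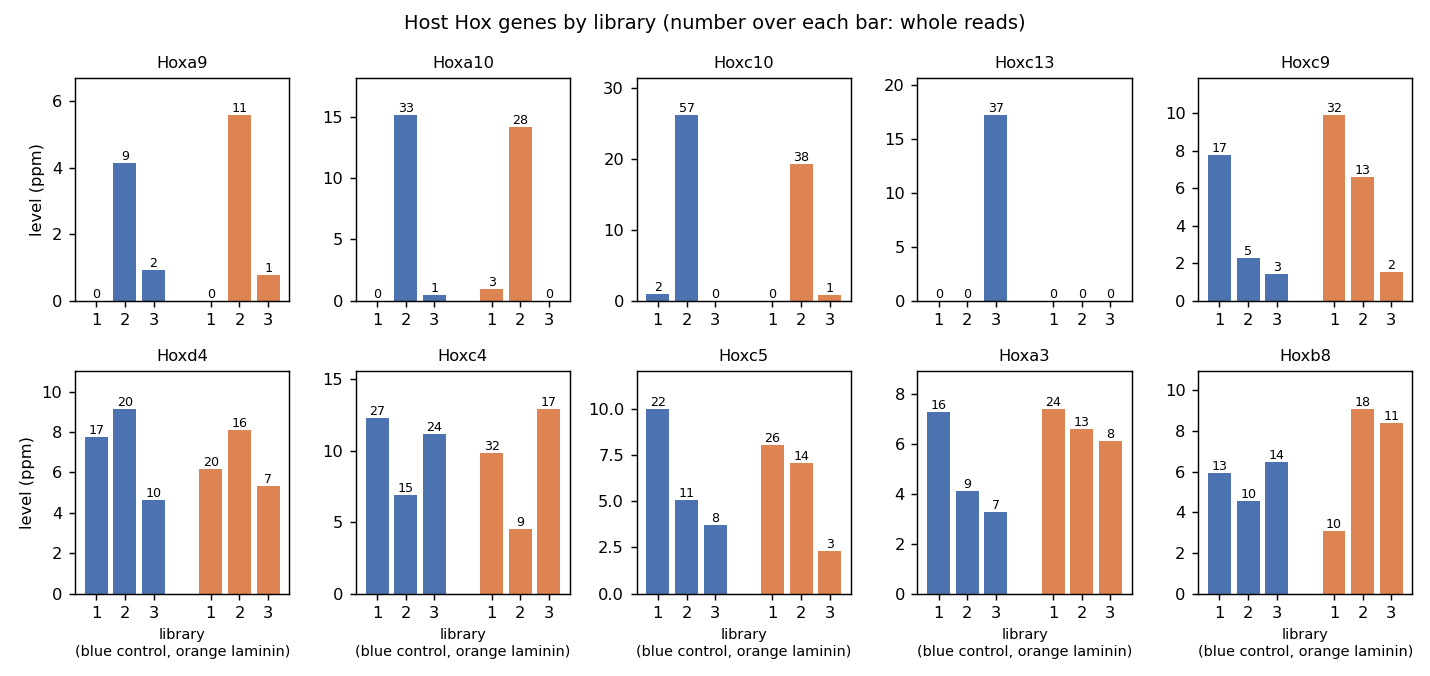
Level of 10 host Hox genes in each library, in ppm, with control libraries in blue, laminin libraries in orange and the number of whole reads above each bar. Hoxa9, Hoxa10 and Hoxc10 lie almost wholly in library 2 of both groups, Hoxc13 lies in control library 3, and the other 6 genes, chosen as examples of the rest, have reads in every library.

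Hoxc13 (chromosome 15, 102921130 to 102928814), which controls keratin genes of hair and nail, had no reads in laminin tumours. Its control level was 5.72 ppm, and its 37 reads all fell in library 3, with 0 in the others. It carried no test. Skin markers moved with it, the level of all 6 being lower in laminin tumours (Krt1 and Krt10 called, Krt5, Krt14, Lor and Trp63 not), with Krt1 listed at 0 there. Keratin-associated protein genes, which encode hair proteins, summed to 217 ppm in control against 0.169 ppm in laminin tumours, and in 35 of them that could be split, 515 of the control reads lay in library 3, 18 in library 1 and 1 in library 2. In 16 keratin genes low enough to be split, 180 of the control reads lay in library 3, 21 in library 1 and 12 in library 2. The 6 skin markers themselves were too high in control tumours to be split. The part of skin or hair in the Hoxc13 signal was not tested.

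Apart from Hoxc13, the paralog 13 genes were not detected in the host. Hoxa13, Hoxb13 and Hoxd13 had 0 reads in both groups, which allows up to 3 reads, or 0.464 ppm in control against 0.762 ppm in laminin tumours, by counting error only, while human HOXA13 had at least 7530 reads in control tumours. Hoxc12, Hoxd1, Hoxd11 and Hoxd12 were also at 0 in both groups. Hoxb1 had 4 reads in control library 2 and 0 in laminin tumours, and Hoxa6 had 9 and 2 reads, where the authors' deposited table gave p = 0.286 and q = 0.899. At 0.103 to 0.254 ppm per read, differences of this size in single host genes were not detectable.

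The host orthologs of the partner list showed no call. Of 43 listed, 40 were in the mouse table and 31 were tested, and 0 were called (3.54% of all tested mouse genes). Over all tested mouse genes 10.1% had an unadjusted p under 0.05, and 3 of these 31 did, a share near that of all genes. Those were Cyp26a1, which degrades retinoic acid, at 4.45 and 15.7 ppm, where the authors' deposited table gave p = 0.0069 and q = 0.131, Eed, at 46.8 and 30.6 ppm, and Rnf2, at 53.5 and 78.0 ppm. Host Ezh2 was at 20.6 and 13.8 ppm, and Cdx2 was listed at 0 in both groups. The difference between tumour cells and host was not tested.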

How the data were processed

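Tumour RNA was sequenced as TruSeq libraries primed at random from poly(A) RNA captured on oligo-dT beads, per the labels' protocols. TopHat2 and Cufflinks are the tools, and hg38 and mm10 the builds, that the submitters' processing notes list. Versions, options and the way reads were assigned to a species: not given in the sources used here. No strand-keeping step is described. The authors deposited 1 table per species in the column layout of Cuffdiff, per the file headers. Each holds a signal value per group without a stated scale, a log2 ratio, a test statistic (a score) and an unadjusted p-value, and the mouse table holds a q-value, all deposited by the authors. Deposited human loci differed from GRCh38.p14 by 0.0396 to 1.92 Mb at the cluster starts, so chromosomes alone are printed for human genes. No sequence of the members was at hand, and none is printed.

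Summed signal of control and laminin tumours, per 1000000, was 893 and 891 for human genes and 969 and 951 for mouse genes. Levels are the signal divided by the mean sum of a table, in ppm. Human p-values received the Benjamini-Hochberg adjustment over 25838 tested genes, and mouse genes were called at the deposited q-value (both under 0.05). The smallest deposited p is 5e-05, shared by 1067 human and 301 mouse genes. Since the values are group values, the planned count test could not be run.

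Low values were split into whole reads of 3 libraries, to a relative tolerance of 1e-05 (human, under 0.280 ppm) and 1e-06 (mouse, under 10.4 ppm). The split was unique for 90.8% to 94.6% of mouse values and for 59.3% to 73.1% of human values. After a shift off the steps 0% to 34.0% of mouse values were whole, the most among laminin values above 7.81 ppm. Intervals and limits cover counting error only, and PCR reads without molecular identifiers are not independent molecules.

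Members and list genes are counted in full, but some items are not reported here by name. Full values are given for called members and the 5 largest shares of reads per species, and other called list genes are named, up to 8 per species by log2 ratio, besides CDX1, CDX2 and EZH2. Members and lists were chosen with earlier results of these data known. Per the design text the 3 tumours of each group were independent. Python 3.11.15 with pandas 2.3.3, numpy 2.4.6 and matplotlib 3.10.9 was used, and the splitting and adjustment were tested on simulated data. Alternatives were other sets of genes to adjust over, a threshold of 0.01, 1 ppm added, centring and summed rows.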

Additional observations from a re-analysis of the deposited data

How the results depend on the processing

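The counts of called human and mouse HOX genes stayed within 1.5 times of those reported when p-values were adjusted over genes of at least 1 or 5 ppm, or the threshold was 0.01. HOXC6 passed over genes of at least 1 ppm, with an adjusted p of 0.0398, and of at least 5 ppm, with 0.0395, while HOXD13 itself, with a mean under 5 ppm, left the test there. The noncoding count was 0 at 5 ppm, since HOXD-AS1 lies below that level. By unadjusted p, an alternative chosen after seeing the data, 1 mouse Hox gene was higher and 3 mouse partner genes passed. Over all tested mouse genes 10.1% passed in this way. The log2 ratio of HOXD13 was 1.93 with 1 ppm added and 4.55 as deposited. No sign of a tested member turned under 1 ppm added or centring. The human partner count ran from 6 to 10. Leaving out a replicate was not run, because the tables hold group values. No paired analysis was possible because the columns carry group values and no replicate numbers. Host genes rest on 0.103 to 0.254 ppm per read, so a change of a few reads in a single host gene is beyond this depth.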

Other observations

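Genes beside the human HOX clusters were listed after their values were seen, taking tested genes of at least 1 ppm within 250 kb of a cluster. Outside the clusters, 4 of 20 such genes were higher in laminin tumours and 0 lower, where 5.63% of all tested human genes, at any level, were higher. They were EVX1 beside cluster A, SKAP1 beside cluster B (12.7 to 31.6 ppm, adjusted p 0.00121), CALCOCO1 beside cluster C (58.4 to 82.0 ppm, adjusted p 0.00327) and KIAA1715 beside cluster D (64.8 to 95.4 ppm, adjusted p 0.00121). SKAP1 encodes an adaptor protein of T cell signalling. Of 18 other genes inside the clusters 3 were higher and 0 lower, namely HOXD-AS1 and the unnamed transcripts CTD-2377D24.6 (22.2 to 35.1 ppm, adjusted p 0.00121) and CTD-2377D24.8 (5.69 to 8.69 ppm, adjusted p 0.0372). SKAP2, beside cluster A, was at 78.8 and 88.7 ppm, and MTX2, beside cluster D, at 44.2 and 37.8 ppm, and neither was called. The floor of 1 ppm was on the mean of both groups. Among the called genes, EVX1 (0.764 and 2.23 ppm) and HOXD-AS1 (0.920 and 2.23 ppm) reached it only through their laminin level. The share over all tested genes has no such floor, so these counts are a description and not a like comparison.

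Limb identity genes, also chosen after the Hox reads were seen, were low in the host. Pitx1, a hindlimb factor, had 0, 4 and 0 reads in the control libraries and 0, 1 and 0 in the laminin libraries. Tbx4, another hindlimb factor, had 0, 3 and 0 reads against 0, 0 and 2. The forelimb factor Tbx5 had 4, 4 and 5 reads against 7, 3 and 0. These counts are too small for a comparison.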
